A study of Mus musculus with 2 samples.

Results

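Paneth cells sit at the base of the small intestinal crypt and release granules that hold antimicrobial and digestive proteins. Alpha-defensins are the best known of these, and a further set of secreted proteins shares the granule or marks the cell. The genes described here are 7 such genes that are not defensins, taken by name: Lyz1, Mmp7, Itln1, Ang4, Mptx2, Habp2 and Pnliprp2. Of the 7, 6 had a row among the 15745 genes of the count table, and Mptx2, which encodes a pentraxin-like mucosal protein, was not analysed here. Lyz1 encodes the Paneth form of lysozyme, which cleaves bacterial cell walls. Mmp7 encodes matrilysin, the protease that matures mouse alpha-defensins. Itln1 encodes intelectin 1, a lectin that binds microbial sugars and is made by both Paneth and goblet cells. Ang4 encodes a ribonuclease of the angiogenin family with antibacterial activity. Habp2 encodes a serine protease that binds hyaluronan, and Pnliprp2 a lipase related to pancreatic lipase. Paneth and goblet cells arise from a shared secretory progenitor that needs Atoh1, and Wnt signalling favours the Paneth fate.

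Lyz1, Mmp7, Itln1 and Ang4 had their highest levels in a cluster of secretory cells that includes the alpha-defensin-rich cells. At day 3, however, many Itln1 transcripts, and a smaller share of those of Ang4, Lyz1 and Mmp7, lay in cells with little or no defensin. Pnliprp2 was not limited to the secretory cells, as its label would have it. At day 5 its level was alike in secretory cells (53.1 CPM, or UMIs per 1000000) and in the far more numerous Enterocyte-like cells (52.0 CPM). The Enterocyte-like cells carried 62.8% of its transcripts. Habp2 was close to the detection limit.

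The organoids were grown from wild type C57BL/6 mice aged 10 weeks and sampled as single cells at day 3 and at day 5, with 1 droplet library per day. Both libraries come from epithelial cultures in medium with EGF, Noggin and R-spondin, so no stromal or immune partner is part of the model. Wnt3a-conditioned medium (20%) and the ROCK inhibitor Y-27632 (10 µM) were added until day 3, and the GSK3B inhibitor CHIR99021 (3 µM) until day 1. From day 3 to day 5 none of these was present, so day and medium cannot be told apart. With 1 library per day no test between days exists, no p-value is given, and intervals cover counting error only. Each library is a mixture of cells, so a sum over all cells cannot tell fewer cells of a type from less RNA per cell.

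Depth is counted in unique molecular identifiers (UMIs), 1 per captured transcript. At day 3 there were 28764033 UMIs from 798 cells (median 32063.5), and at day 5 17349076 from 1065 cells (median 13549), so day 5 cells were shallower. Levels are given as UMIs per 1000000 UMIs of the cells summed (CPM), with exact Poisson 95% intervals in parentheses, and a cell with at least 5 UMIs of a gene is called a holder of it. Immune transcripts were nearly absent, with 2 and 4 UMIs of the myeloid lysozyme gene Lyz2, the closest paralog of Lyz1, at day 3 and day 5. Paralogs that share sequence can split reads in the authors' counting, and Lyz1 with Lyz2 and Ang4 with Ang and Ang5 are uncertain to that extent.

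The genes are spread over several chromosomes (GRCm38, GENCODE M21, all protein-coding). Lyz1 lies on chromosome 10 from 117287797 to 117292868, Mmp7 on chromosome 9 from 7692090 to 7699585, Itln1 on chromosome 1 from 171518122 to 171535294 and Ang4 on chromosome 14 from 51763878 to 51773590. Mptx2 lies on chromosome 1 from 173274382 to 173277777. Habp2 spans 56287137 to 56320822 and Pnliprp2 58759719 to 58777534, both on chromosome 19.

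All 7 genes had a promoter in the RefSeq table (build GRCm38.p6). Sequences are shown for the 4 genes that were highest in the secretory cells and for Pnliprp2, which was also found widely outside them, so that their start regions can be compared. Each run is the 100 bases before the first listed start, 5′ to 3′ on the gene's strand, and capitals mark matches to TATAAA or to the letters TTTATG or TTTATNG on either strand, which are forms of the site that the intestinal homeobox factor CDX2 binds.
Lyz1, chr10:117292869-117292968, minus strand: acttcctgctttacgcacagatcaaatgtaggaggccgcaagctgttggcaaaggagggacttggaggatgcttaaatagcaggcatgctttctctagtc
Mmp7, chr9:7691990-7692089, plus strand: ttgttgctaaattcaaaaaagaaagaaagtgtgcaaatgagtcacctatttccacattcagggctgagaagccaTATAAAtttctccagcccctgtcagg
Itln1, chr1:171535295-171535394, minus strand: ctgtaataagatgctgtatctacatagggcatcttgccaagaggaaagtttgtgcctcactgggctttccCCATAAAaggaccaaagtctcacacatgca
Ang4, chr14:51773591-51773690, minus strand: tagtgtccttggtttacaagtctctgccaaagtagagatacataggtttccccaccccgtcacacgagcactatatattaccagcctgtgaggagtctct
Pnliprp2, chr19:58759623-58759722, plus strand: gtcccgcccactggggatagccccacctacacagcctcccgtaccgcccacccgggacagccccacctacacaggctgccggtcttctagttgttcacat

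In the 250 bases before these starts, TATAAA matched in Mmp7, where the nearer of 2 matches began 26 bases before the start, and in none of the other 6 genes. It is present in 12.4% of 32851 promoters of the same length. The CDX2 letters, whose reverse form can overlap TATAAA, matched in Itln1, Mmp7 and Mptx2 and in 17.2% of all promoters, and the nearest of them in Itln1 began 29 bases before the start. CTTTGAT or CTTTGAA, the core bound by the Wnt effectors TCF and LEF, matched in none of the 7 genes at these starts and in 7.48% of all promoters. Mmp7 has a second listed start, whose 250 bases hold 1 such match, 247 bases before it, and no TATAAA or CDX2 letters. CAGCTG or CAGATG, E-box forms that ATOH1 can bind, matched in Ang4 and in 25.5% of all promoters. No motif was found at the first starts of all 4 co-detected genes.

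To ask which cells hold these transcripts, all cells were clustered on variable genes with the 7 genes left out. A single group, cluster 7, held most of the Lyz1, Mmp7, Itln1 and Ang4 UMIs of each day. Its leading genes were those of both Paneth cells (Defa17, Defa3, Defa24) and goblet cells (Zg16, Spink4, Muc2), so it is called the mixed secretory cluster. It contained 45 cells at day 3 and 40 at day 5, with medians of 32857 and 17420 UMIs per cell.

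Of all Lyz1 UMIs, 84.4% at day 3 and 91.0% at day 5 lay in these cells. For Mmp7 the shares were 79.0% and 92.5%, and for Itln1 69.5% and 84.4%. Ang4 was the most spread of the 4 at day 3, with 59.2% in the cluster, and reached 94.2% at day 5. Pnliprp2 stood apart, with 9.09% and 8.61%.

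In the mixed secretory cluster Lyz1 reached 402 CPM (371 to 434) in the day 3 library and 849 CPM (785 to 917) in that of day 5. In Enterocyte-like cells of day 5, absorptive cells in which lysozyme is not made, Lyz1 stood at 1.39 CPM. Among the other named groups, the 5 Enteroendocrine-like cells of day 5 had 269 CPM, but 13 of their 15 UMIs came from 1 cell. That cell also held 113 alpha-defensin UMIs beside 1049 UMIs of the Enteroendocrine list.

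**Figure D1:**
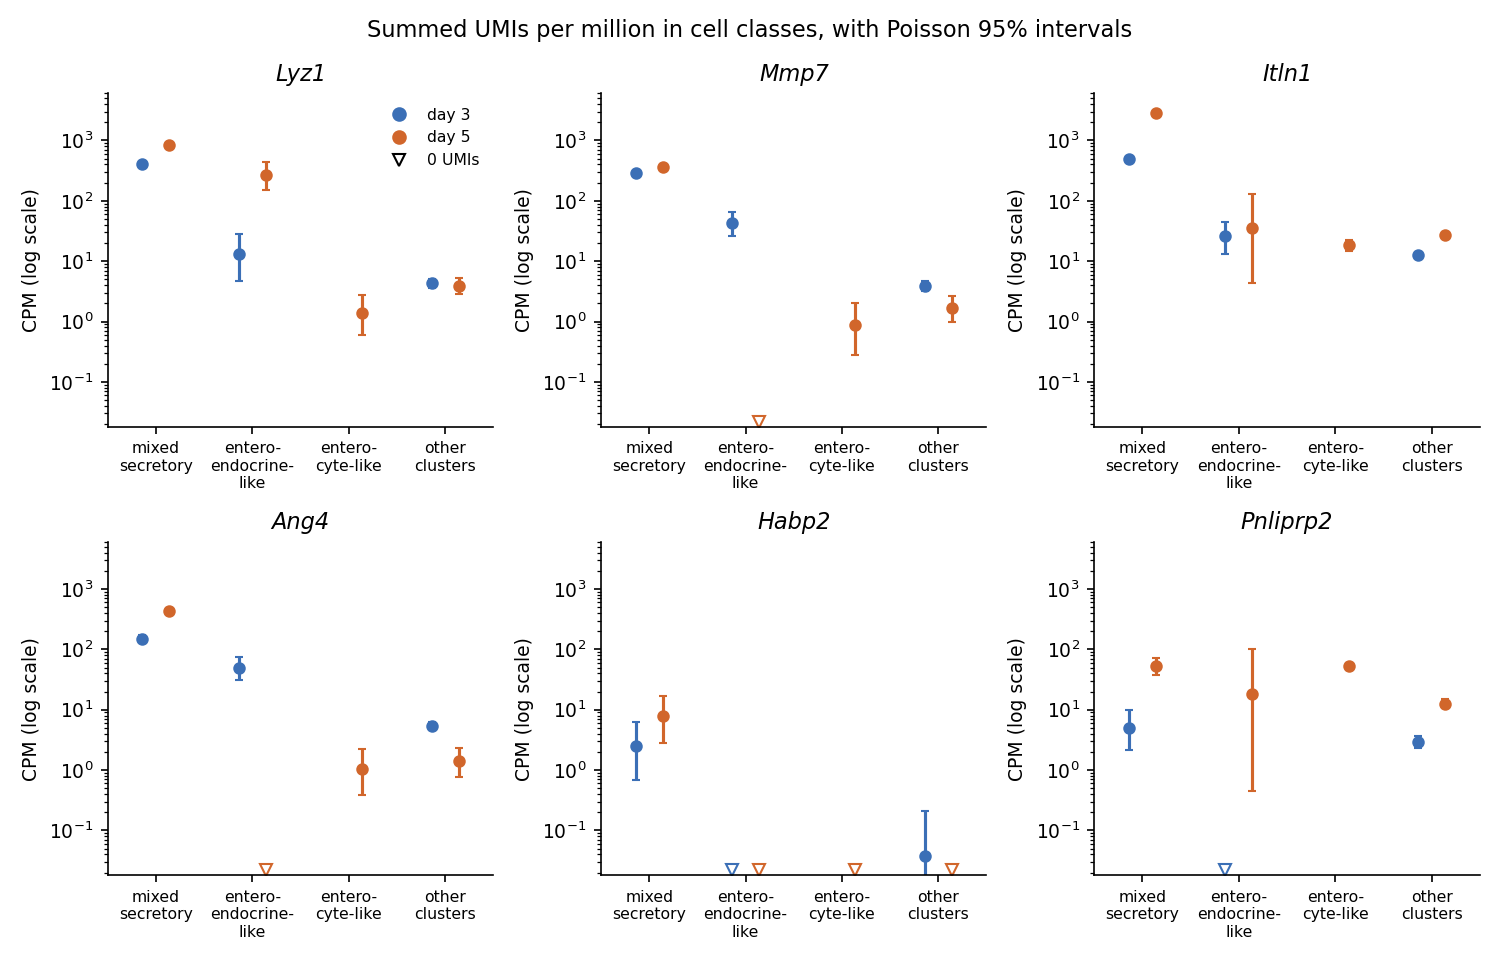
Level of each gene (CPM, log axis) in the mixed secretory cluster, Enteroendocrine-like cells, Enterocyte-like cells and all other clusters, for day 3 (blue) and day 5 (orange). Points are summed counts with exact Poisson 95% intervals, open triangles mark 0 UMIs, and the 3 Enterocyte-like cells of day 3 are not drawn. Lyz1, Mmp7, Itln1 and Ang4 were highest in the mixed secretory cluster on both days, whereas Pnliprp2 at day 5 stood at 53.1 CPM there and at 52.0 CPM in Enterocyte-like cells.

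Share of cells with any UMI is a weaker guide, because free RNA in the droplets can give single UMIs to cells that do not make a transcript. At day 5, in Enterocyte-like cells with a median of 11002 UMIs, Defa24 was found in 62.9% of 493 cells, Itln1 in 18.3%, Lyz1 in 1.42%, Ang4 in 1.22% and Mmp7 in 1.01%. In the mixed secretory cluster of that day Itln1 was found in 77.5%, Lyz1 in 70.0%, Mmp7 in 57.5% and Ang4 in 40.0% of 40 cells. After each cell was thinned to 6700 UMIs Itln1, Lyz1, Mmp7 and Ang4 were found in 30, 26, 18 and 15 of these 40 cells, and in 8.92%, 0.811%, 0.609% and 0.609% of Enterocyte-like cells. The gap between the cell groups was thus present at equal depth.

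Over whole libraries the 4 genes rested on few cells. Lyz1 had 768 UMIs in 126 cells at day 3 and 721 UMIs in 66 cells at day 5. The single cell with most Lyz1 carried 190 UMIs at day 3 and 189 at day 5, which is 24.7% and 26.2% of the library's Lyz1. Its 10 leading cells carried 69.8% and 76.6%. Lyz1 was held by 19 cells at day 3 (2.38%, exact interval 1.44 to 3.69) and by 21 cells at day 5 (1.97%, 1.22 to 3.00).

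Mmp7 had 591 UMIs at day 3 and 305 at day 5, with at most 52 and 68 in a cell. It was held by 28 cells (3.51%) at day 3 and 17 (1.60%) at day 5. The leading cell made up 8.80% of Mmp7 in the first library and 22.3% in the second, and the 10 leading cells 51.4% and 73.4%. Ang4 had 409 and 360 UMIs, held by 14 and 12 cells, and at day 5 a single cell carried 144 UMIs, 40.0% of the library's Ang4.

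Itln1 was held by 36 cells (4.51%) at day 3 and 38 (3.57%) at day 5, yet its UMIs went from 1166 to 2595. The highest cell held 125 UMIs at day 3 and 230 at day 5. The range of UMIs over Itln1 holders overlapped between the days. These holder numbers depend on depth, since day 5 cells were shallower. At an equal 6700 UMIs per cell, Itln1 holders were 12 at day 3 and 24 at day 5, Lyz1 holders 9 and 14, Mmp7 holders 7 and 8, and Ang4 holders 4 and 8.

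The comparison of the days sets organoids sampled at the end of Wnt3a supply beside organoids sampled after it. A gene was counted as higher or lower where the levels differed by at least 1.5-fold and the Poisson intervals were apart. Summed over all cells, Lyz1 gave 26.7 CPM (24.8 to 28.7) in the first library and 41.6 CPM (38.6 to 44.7) in the second. Its log2 ratio, day 5 over day 3, was 0.64 (0.49 to 0.79), counted as higher. Itln1 was counted as higher too, with levels of 40.5 (38.2 to 42.9) and 149.6 CPM (144 to 155) and a log2 ratio of 1.88 (1.78 to 1.98). So was Pnliprp2, with 3.06 and 27.4 CPM and a log2 ratio of 3.16 (2.83 to 3.51).

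Ang4 stood at 14.2 CPM and 20.8 CPM, a log2 ratio of 0.55 (0.34 to 0.75) that missed the fold limit. It rested on the leading cells, since the ratio was 0.093 without the highest cell of each library. With day 5 limited to its 320 cells at or above the lowest depth of day 3, the Ang4 ratio turned to -0.51. Mmp7 stood at 20.5 CPM and 17.6 CPM, a log2 ratio of -0.22 (-0.43 to -0.02), and was counted as neither. In all, 3 of 6 measured genes were counted as higher and 0 as lower, where 12.3% of 12782 genes were counted as higher and 31.6% as lower. The median log2 ratio was 0.80 over the 6 genes and -0.33 over all genes. TMM scaling moved every ratio up by 0.31, which brought the median of all genes to -0.02 and turned the sign of Mmp7, to 0.089. Ang4 then stood at 0.86 and was counted as higher, while 18.8% of all genes were counted as higher and 17.2% as lower.

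Inside the mixed secretory cluster the same genes separated more clearly. Itln1 levels there were 502 CPM (468 to 538) for day 3 and 2835 CPM (2717 to 2956) for day 5, with a log2 ratio of 2.50 (2.38 to 2.61). Its median per cell went from 8 to 30.5 UMIs although the day 5 cells were shallower. Lyz1 had a log2 ratio of 1.08 (0.92 to 1.24) at an unchanged median of 3 UMIs per cell.

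Ang4 levels were 150.1 (132 to 170) and 439 CPM (393 to 488), giving a log2 ratio of 1.55 (1.31 to 1.79), although Ang4 had a median of 0 UMIs per cell on both days. Mmp7, with 289.6 (264 to 317) and 365 CPM (324 to 410.2), had a log2 ratio of 0.34 (0.12 to 0.55) and was counted as neither. Pnliprp2 had 8 and 41 UMIs there. With Lyz1, Itln1, Ang4 and Pnliprp2, 4 of 6 genes were counted as higher and 0 as lower, where 3.93% of 9118 genes were counted as higher and 11.2% as lower. The same 4 were counted without the leading cell of each gene in each library, where Ang4 stood at 1.26.

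The cluster is not made of like cells on both days. Its median alpha-defensin level was 16.7 UMIs per 10000 at day 3 and 502 at day 5, so its day 5 cells were richer in defensin-holding cells. The days were therefore also compared in cells with at least 100 alpha-defensin UMIs per 10000, of which there were 10 at day 3 and 27 at day 5. In these, the Lyz1 levels were 973 (882 to 1071) and 946 CPM (863 to 1035), with a log2 ratio of -0.04 (-0.23 to 0.15). Those of Mmp7 were 566 (497 to 642) and 561 CPM (497 to 630.0), with a log2 ratio of -0.01.

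Itln1 in the same cells had 690.2 CPM (614 to 774) on the first day and 4214 CPM (4037 to 4398) on the second, with a log2 ratio of 2.61 (2.43 to 2.79). Its UMIs per cell ran from 2 over a median of 21 to 70 at day 3, and from 0 over 54 to 230 at day 5. Ang4 had 321 CPM and 652 CPM, a log2 ratio of 1.02 (0.73 to 1.32), while its median per cell went the other way, from 4 to 1 UMIs and from 0.769 to 0.408 UMIs per 10000. Ang4 was held by 5 of the 10 and 11 of the 27 cells. The Lyz1 value turned on the cell with 190 UMIs: without the highest cell of each library its log2 ratio was 0.61 and it was counted as higher. Among defensin-rich cells 3 of 6 genes (Itln1, Ang4 and Pnliprp2) were counted as higher and 0 as lower, where 2.21% of 6604 genes were counted as higher and 6.97% as lower. The days were not matched in defensin level here, since 9 of the day 5 cells and 0 of the day 3 cells had at least 1000. In the 10 and 18 cells from 100 to 1000, Ang4 stood at 321 CPM at day 3 and 224 CPM at day 5. Mmp7 stood at 566 and 290 CPM, Lyz1 at 973 and 804 CPM, Itln1 at 690 and 2893 CPM, and Pnliprp2 at 11.7 and 58.5 CPM. This range did not match the days in defensin level either. Its highest cell had 622 alpha-defensin UMIs per 10000 at day 3 and 990 at day 5.

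**Figure D2:**
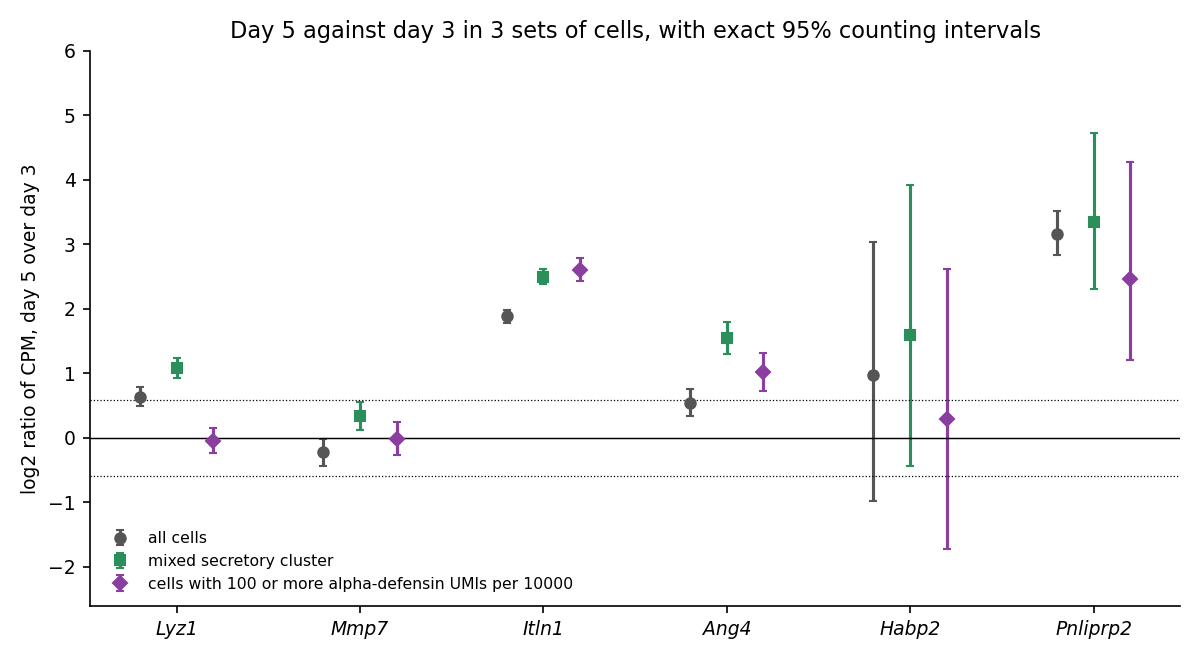
Log2 ratio of day 5 over day 3 for the 6 measured genes over all cells (grey circles), in the mixed secretory cluster (green squares) and in cells with at least 100 alpha-defensin UMIs per 10000 (purple diamonds). Bars are exact 95% intervals for counting error, and dotted lines mark 1.5-fold. Itln1 lay between 1.88 and 2.61 in all 3 sets, while Lyz1 stood at 1.08 in the cluster and at -0.04 in defensin-rich cells.

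For the order of onset, cells of the mixed secretory cluster were placed by their alpha-defensin level, which includes none of the 7 genes. Cells of a single day carry no clock, so the order below is one of levels. Apart from the lowest bin of day 3, which had 20 cells, each bin held fewer than 20 cells, and the 10 to 100 bin of day 5 held only 2.

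At day 3, transcripts of these genes were already present in cells with hardly any defensin. Of the 20 cells with under 10 alpha-defensin UMIs per 10000, 9 held Itln1, 6 held Mmp7, 5 held Lyz1 and 1 held Ang4. A cell with 1 alpha-defensin UMI among 33585 UMIs carried 125 Itln1, 52 Lyz1, 8 Mmp7 and 4 Ang4 UMIs. Another, with 0 alpha-defensin UMIs, carried 19 Mmp7, 7 Itln1 and 6 Lyz1 UMIs. The median goblet-list level of these 20 cells was 317 UMIs per 10000, against 2.07 over the library. In the cluster's day 3 cells with 10 to 100 and 100 to 1000 alpha-defensin UMIs per 10000 it was 171 and 190. In the 9 day 5 cells with at least 1000 it was 408, so a high goblet-list level was not particular to defensin-poor cells.

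At day 5, among the 12 cells with under 10 alpha-defensin UMIs per 10000, only 1 held Itln1 and none held Lyz1, Mmp7 or Ang4. Mmp7 and Ang4 had 0 UMIs in all 12 cells together, which allows a share of cells with a UMI of up to 25%. Their goblet-list level was 569 per 10000 in the median. These cells had a median of 18629 UMIs against 25590.5 at day 3. At an equal 6700 UMIs per cell, Mmp7 was found in 8 of 20 cells at day 3 and in 0 of 12 at day 5, Lyz1 in 6 and 2, Itln1 in 9 and 4, and Ang4 in 3 and 0. Without thinning, an Itln1 UMI was found in 13 of the 20 and 5 of the 12 cells. These numbers take 1 UMI as the limit, so they cannot be set against the holders. Over the whole day 3 library, 683 of 1166 Itln1 UMIs and 174 of 409 Ang4 UMIs lay in cells with under 10 alpha-defensin UMIs per 10000. So did 253 of 768 Lyz1 UMIs and 176 of 591 Mmp7 UMIs. The 174 Ang4 UMIs were spread over 115 of 772 cells with 3 holders, and 20 of them lay in the mixed secretory cluster. The 683 Itln1 UMIs were in 231 cells with 17 holders, and 329 lay in that cluster. The part of free RNA in these UMIs was not tested.

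**Figure D3:**
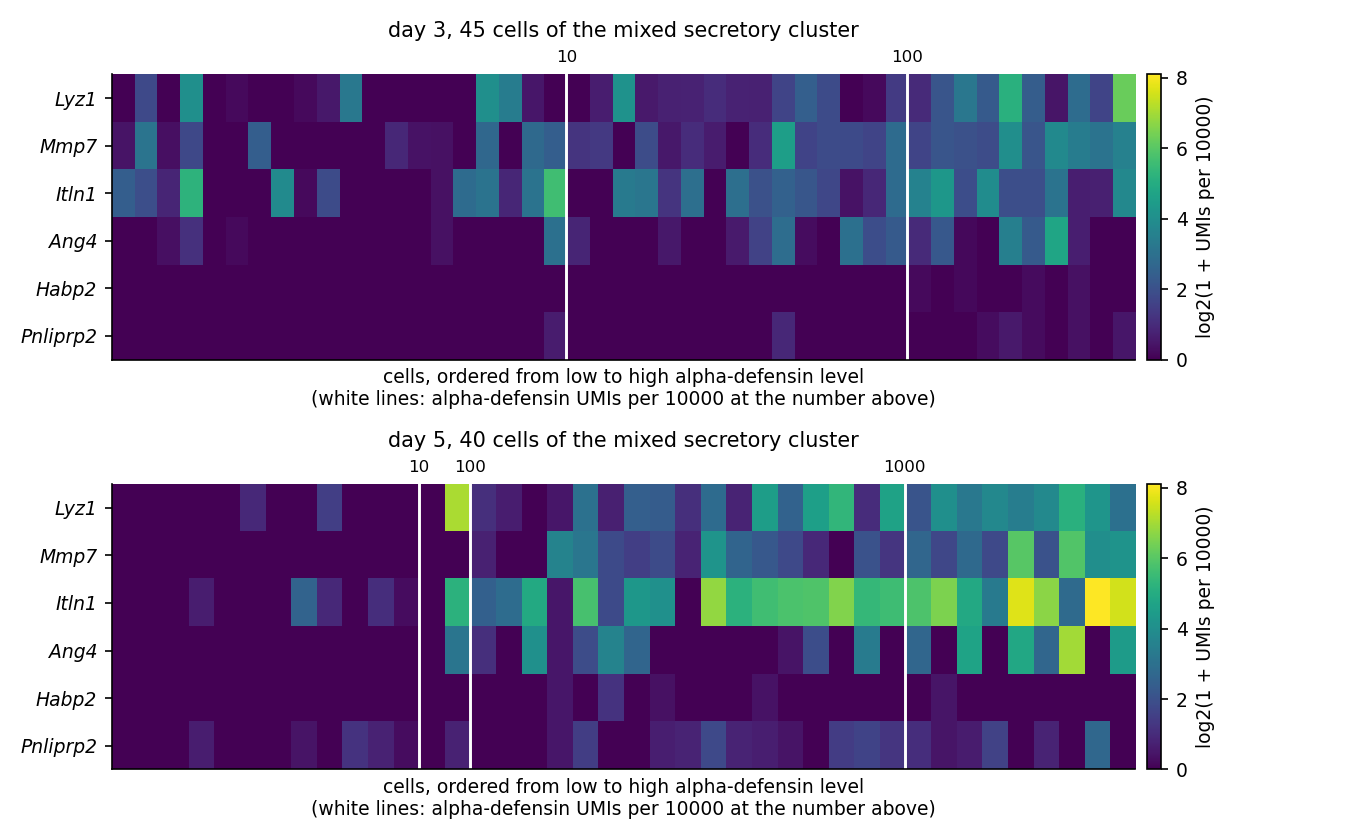
Each column is a cell of the mixed secretory cluster, ordered by alpha-defensin level, and each row a gene, with colour giving log2(1 + UMIs per 10000). White lines mark 10, 100 and 1000 alpha-defensin UMIs per 10000. At day 3 Itln1, Mmp7 and Lyz1 appear left of the first line, and at day 5 few cells of that region are bright while Itln1 is bright to the right.

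With more defensin the genes were held by more cells. At day 3, in the 15 cells with 10 to 100 alpha-defensin UMIs per 10000, Itln1 was held by 11, Mmp7 by 10, and Lyz1 and Ang4 by 5 each. In the 10 cells with 100 to 1000, Mmp7 was held by 10, Lyz1 by 9, Itln1 by 8 and Ang4 by 5. At day 5, in the 17 cells of that range, Itln1 was held by 14, Lyz1 by 10, Mmp7 by 8 and Ang4 by 5.

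The 9 cells with at least 1000 alpha-defensin UMIs per 10000 were all from day 5. Itln1 was held by 9 of them, Lyz1 and Mmp7 by 8 and Ang4 by 6. In the lowest and the highest bin reached on each day, none of Itln1, Lyz1 and Mmp7 was held by fewer cells than Ang4. In the lowest bin of day 5, Lyz1, Mmp7 and Ang4 were equal, with 0 holders each. The holder limit is a fixed number of UMIs, so this order also reflects how abundant each transcript is.

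Itln1 levels at day 5 were higher in each higher bin: 79.3 CPM under 10, 2047 CPM in the 2 cells from 10 to 100, 2949.6 CPM from 100 to 1000 and 8118 CPM above. At day 3 Itln1 did not follow them, with 538 CPM under 10, 324 CPM from 10 to 100 and 690.2 CPM from 100 to 1000. Mmp7 went from 124 over 260 to 566 CPM across the same day 3 bins. One day 5 cell stood outside this order, with 189 Lyz1 and 50 Itln1 UMIs at an alpha-defensin level of 24.3 per 10000.

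**Figure D4:**
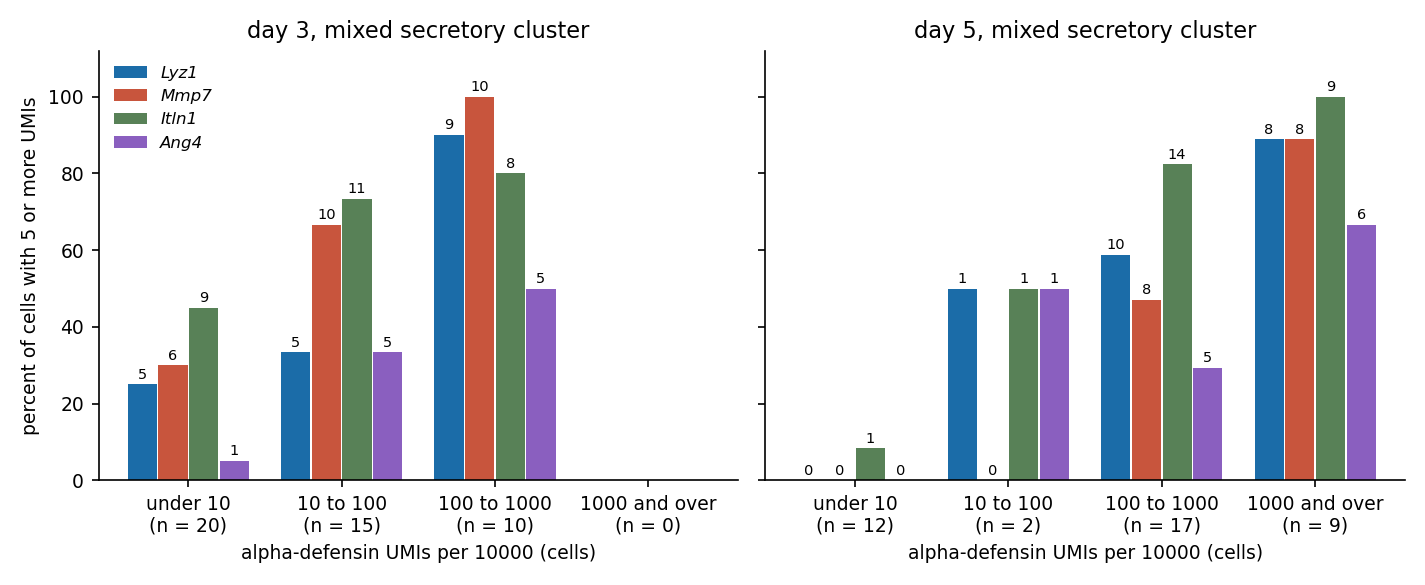
Percent of mixed secretory cells holding Lyz1, Mmp7, Itln1 or Ang4 (5 or more UMIs) in bins of alpha-defensin UMIs per 10000, with the number of holders above each bar and the number of cells under each bin. In the lowest bin 9, 6, 5 and 1 of 20 cells held Itln1, Mmp7, Lyz1 and Ang4 at day 3, and 1, 0, 0 and 0 of 12 cells at day 5.

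As a description over cells of 1 library, Pearson's r of log2(1 + UMIs per 10000) with the alpha-defensin level within the cluster was 0.23 at day 3 and 0.80 at day 5 for Itln1 (45 and 40 cells). For Lyz1 it was 0.42 and 0.65, for Mmp7 0.61 and 0.71, and for Ang4 0.45 and 0.48. These cells share a library and their own depth, so no p-value is given. Among the 4, Mmp7 had the highest r with defensin at day 3, and Itln1 at day 5.

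Co-expression was counted over holders of Lyz1, Mmp7, Itln1 and Ang4. At day 3, 46 cells held at least 1 of the 4, 27 at least 2, 18 at least 3 and 6 all 4. At day 5 the numbers were 41, 25, 17 and 5. At equal depth the cells holding at least 1 were 22 at day 3 and 28 at day 5. Of the mixed secretory cells, 9 of 45 at day 3 and 13 of 40 at day 5 held none. The most frequent combination with Lyz1 on both days was Lyz1, Mmp7 and Itln1 without Ang4, in 8 cells each. Itln1 alone was found in 13 cells on each day.

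The cells shared by a pair of genes are the same in both directions. The shares below therefore differ by direction only through the number of holders of each gene. Of Lyz1 holders, 15 of 19 at day 3 and 20 of 21 at day 5 also held Itln1, while 15 of 36 and 20 of 38 Itln1 holders held Lyz1. Of Mmp7 holders, 21 of 28 and 16 of 17 held Itln1. Ang4 holders at day 3 included 12 of 14 that held Mmp7 and 11 of 14 that held Itln1, and at day 5 6 of 12 and 11 of 12. Each of the 11 Ang4 holders in the cluster at day 3 and of the 12 at day 5 had at least 1 Itln1 UMI.

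At day 3 Lyz1 and Ang4 shared the fewest holders: 6 of 14 Ang4 holders held Lyz1, and 9 of 19 Lyz1 holders in the cluster had 0 Ang4 UMIs. The cell with 190 Lyz1 UMIs had 0 of Ang4, and the cell with 73 Ang4 UMIs had 1 of Lyz1. Within the cluster r of Lyz1 and Ang4 was 0.036 at day 3 and 0.35 at day 5, against 0.54 and 0.57 for Mmp7 and Ang4 and 0.33 and 0.73 for Lyz1 and Itln1. Weak values in counts this sparse carry no finding.

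Itln1 was also held outside the mixed secretory cluster, by 8 of its 36 holders at day 3 and 13 of 38 at day 5. These cells carried 5 to 17 Itln1 UMIs at day 3 and 5 to 46 at day 5. Their median goblet-list level was 2.92 and 3.67 UMIs per 10000, near the library medians of 2.07 and 2.32, and their median alpha-defensin level was 0.434 and 3.43 per 10000. At day 3, 7 of the 8 held no other of the 4 genes, and at day 5, 11 of 13.

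A day 3 cell of an unnamed cluster carried 14 Itln1 UMIs with 0 alpha-defensin and 2 goblet-list UMIs. At day 3 the 8 cells were spread over the Stem-like (2), Enteroendocrine-like (1) and 2 unnamed clusters (3 and 2). At day 5, 7 were in cluster 12, led by histone genes and Neil3, 5 in cluster 11, led by Slc23a3 and Gkn3, and 1 in the Regenerating epithelium-like cluster. Doublet calls marked 1 of the day 5 cells. By contrast Lyz1 had 0 and 2 holders outside the cluster, Mmp7 2 and 1, and Ang4 3 and 0.

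The low level of Itln1 in other cells also differed from that of Lyz1, Mmp7 and Ang4. For each 100 Defa24 UMIs at day 5, the mixed secretory cluster had 7.04 Itln1 UMIs and Enterocyte-like cells 21.8. The same ratio was 2.11 and 1.66 for Lyz1, 0.906 and 1.04 for Mmp7, and 1.09 and 1.25 for Ang4, the last 3 from 5 to 8 UMIs each in Enterocyte-like cells. For Lyz1, Mmp7 and Ang4 the ratio in Enterocyte-like cells was near that in the mixed secretory cluster, within few UMIs, and Itln1 stood higher. The goblet-list genes Zg16 (13.0 and 45.5) and Tff3 (46.0 and 235) stood higher there too, so this was not particular to Itln1. Whether any of these UMIs are free RNA, and from which cells, was not tested.

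Pnliprp2 had another distribution. At day 5 its 476 UMIs were found in 262 cells, and 62.8% of them lay in Enterocyte-like cells, or 45.6% when each library was clustered alone. Cluster 8, the Enterocyte-like cells led by Ggt1, Slc5a4b and Apoa4, stood at 88.6 CPM, with a UMI in 41.3% of 235 cells. Cluster 9, led by Fabp1 and Reg1, stood at 25.3 CPM, and the unnamed cluster 10, led by Edn2, at 26.3 CPM. The 8 Regenerating epithelium-like cells stood at 48.0 CPM, from 12 UMIs of which 8 lay in 1 cell. Clusters 11 and 12 stood at 8.64 and 7.45 CPM.

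No single cell stood out at day 5, where the highest held 19 UMIs and the 10 highest cells 18.5% of the total. Of its 13 holders, 10 were Enterocyte-like and 1 was in the mixed secretory cluster, and 1 of 13 held any other of the 6 genes. The median Enterocyte-list level was 522 UMIs per 10000 in the 13 holders, 264 in the 249 cells with 1 to 4 UMIs and 124 in the 803 cells with none. Cells with more Pnliprp2 thus had higher absorptive transcripts in the median, though secretory cells with few of these transcripts had Pnliprp2 too. The cell with 19 Pnliprp2 UMIs was in cluster 10 and had 170 Enterocyte-list UMIs among its 33467.

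Mixed secretory cells of day 5 also had Pnliprp2, at 53.1 CPM (38.1 to 72.0), in 57.5% of 40 cells and at most 5 UMIs a cell. That share was above the 31.6% of Enterocyte-like cells, and at equal depth the shares were 37.5% and 24.7%. By defensin level it was 57.0 CPM from 100 to 1000 and 102 CPM at 1000 and over, from 21 and 13 UMIs. At day 3 Pnliprp2 had 88 UMIs, 70.5% of them in the Regenerating epithelium-like cluster. In that cluster 1 cell held 40 UMIs and another 10, and the other 38 UMIs of the library were spread over 30 cells. Without the highest cell of each library the log2 ratio was 3.97 in place of 3.16.

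**Figure D5:**
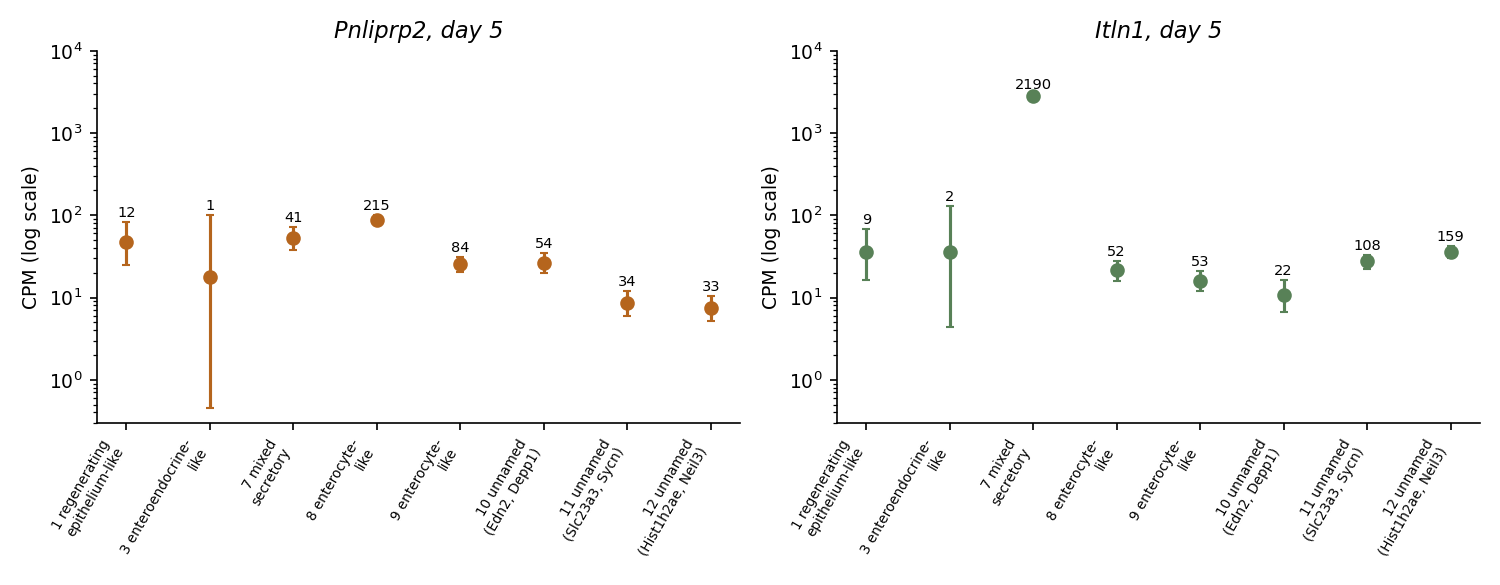
Level of Pnliprp2 and of Itln1 at day 5 in each cluster with at least 5 cells (CPM, log axis, exact Poisson 95% intervals), with the number of UMIs above each point. Pnliprp2 was highest in Enterocyte-like cluster 8 at 88.6 CPM and Itln1 in mixed secretory cluster 7 at 2835 CPM.

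Habp2 was found as 5 UMIs in 5 cells at day 3 and 6 UMIs in 5 cells at day 5, with no holder. Of these 10 cells, 9 were in the mixed secretory cluster, and all 9 had at least 100 alpha-defensin UMIs per 10000. The tenth was a Proliferating-like cell of day 3 with 0 alpha-defensin UMIs. Of the defensin-rich cells, 4 of 10 at day 3 and 5 of 27 at day 5 had a Habp2 UMI. Among Enterocyte-like cells of day 5, 0 of 493 had a Habp2 UMI, which allows a share of up to 0.609%. No order between days can be read from these counts.

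Genes whose pattern over cells was most like each gene were taken by Pearson's r over all cells of a day, among 11350 genes at day 3 and 10751 at day 5. At day 5 Lyz1 was most like Defa17 (0.76), Mmp7 like Defa26 and Reg4 (0.80 each), Itln1 like Defa17 (0.77) and Ang4 like Defa3 and Reg4 (0.67 each), over 1065 cells. At day 3 Lyz1 was most like the secreted ribonuclease gene Rnase1 (0.64), and Mmp7 (0.83) and Ang4 (0.55) like Reg4, a lectin-like gene of secretory cells, over 798 cells.

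Itln1 at day 3 differed from Lyz1, Mmp7 and Ang4 in its 5 neighbours, none of which was a defensin. They were Spink4 (0.70), Fcgbp (0.61), Ramp1 (0.61), Ccl9 (0.60) and Selenom (0.58), and the first 4 of these are on the goblet list used here. Spink4 was also among the 5 genes most like Lyz1, Mmp7 and Ang4. The difference was small, since r of Itln1 with the alpha-defensin level over the same cells was 0.56. At day 5 the 5 genes most like Itln1 were 4 defensins and Reg4. Pnliprp2 at day 5 was most like Adipor2 (0.34), H2-Q2 (0.34), Cdhr2, a protocadherin of the brush border (0.33), and Alpi, the intestinal alkaline phosphatase (0.33). Its day 3 likeness, led by Il5ra (0.66), rested on few cells. Habp2 fell under the minimum of 20 UMIs.

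Other genes of the Paneth programme give the setting. Of 14 other Paneth markers with at least 10 UMIs, 13 were counted as higher at day 5 over all cells and 1 as lower, where 12.3% and 31.6% of all genes were. Their median log2 ratio was 3.09 against -0.33 over all genes. The 1 counted as lower was the stress gene Nupr1 (log2 ratio -1.06), which had 41 of its 1097 day 3 UMIs in the mixed secretory cluster. Inside that cluster all 14 were counted as higher, Nupr1 at 1.58, where 3.93% of 9118 genes were. Most of the 14 are defensins, among them Defa24 (2.21 over all cells) and Defa30 (5.20 over all cells). Clps, which encodes the lipase cofactor colipase, had 2.52 over all cells. Mptx1, the pentraxin-like paralog of Mptx2, had 74 UMIs at day 3 and 417 at day 5, a log2 ratio of 3.22. It did not follow the defensins over cells. At day 5, 125 of its UMIs lay in 1 cell with 532 alpha-defensin UMIs. Mixed secretory cells with 78, 61, 47 and 47 Mptx1 UMIs had 0 to 4 alpha-defensin UMIs, and the cell richest in defensin had 0 of Mptx1.

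Regulators and niche signals moved less. Of 15 measured, 2 were counted as higher and 1 as lower over all cells, where 12.3% and 31.6% of all genes were. Fzd5, a Wnt receptor needed for Paneth maturation (0.90), and Slc30a2, a zinc transporter of the granule (2.68, from 3 and 13 UMIs), were higher. Cd24a was lower (-0.77). Most UMIs of Fzd5 and Slc30a2 lay outside the mixed secretory cluster. It held 57 of 1718 Fzd5 UMIs at day 3 and 54 of 1931 at day 5, and 0 and 1 Slc30a2 UMIs. Inside the cluster Fzd5 was counted as higher (0.98) and Cd24a as neither (-0.18). Over all cells the secretory factors Atoh1 (-0.26), Gfi1 (-0.72), Spdef (-0.60) and Sox9 (-0.45) and the niche ligand Wnt3 (-0.47) were counted as neither. Under TMM scaling Atoh1 stood at 0.05, Cd24a at -0.46 and was no longer counted as lower, and Xbp1, a factor of the secretory stress response, at 0.63 and was counted as higher. Of 4 genes on the paralog list with at least 10 UMIs, 3 were counted as higher and 1 as lower, where 12.3% and 31.6% of all genes were. Beside Mptx1, those higher were Ang (0.59) and Pnliprp1 (2.91, from 6 and 29 UMIs). Habp4 (-0.61) was lower, though not under TMM scaling (-0.30). It is on the list by its name, which gives the same ligand as Habp2, but it is no protease.

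Other secretory transcripts lay beside these genes in the same cells. The median goblet-list level of holders at day 3 and day 5 was 207 and 186 UMIs per 10000 for Lyz1, and 206 and 186 for Mmp7. For Itln1 it was 188 and 108, and for Ang4 243 and 420, against library medians of 2.07 and 2.32. Doublets were called in 0 holders of Lyz1, Mmp7 and Ang4. The part of mixed cells and of free RNA in this overlap was not tested.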

How the data were processed

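The UMI counts the authors deposited cover every gene in every cell and were made with Cell Ranger 1.3.0 on mm10, per the submitters' processing notes. Log2 values of the same cells, also deposited, served only as an alternative. How cells and genes were filtered is not stated in the sources used here. Cells are named by day and number, not by barcode, so barcodes shared between libraries could not be counted, and 0 columns stayed unmapped. The genes and lists were chosen with earlier results of these data known. Named genes are the 7 listed genes, the 5 genes most like each, and the Paneth, regulator and paralog lists.

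Counts were summed over cells as CPM with exact Poisson 95% intervals, and log2 ratios used 0.5 UMI added. Shares have exact Clopper-Pearson intervals, and the limit given for a share of 0 is 3 counts over the number of cells. The background took genes with at least 10 UMIs over both libraries. Symbols matched 15681 of 15745 identifiers. Clustering used scanpy 1.11.5 (2000 variable genes without the 7, 30 components, 15 neighbours, Leiden resolution 1). A cluster was named where at least 3 markers of a type were among its 25 leading genes, and these names are rebuilt here, not the authors'. Scrublet marked 5 cells of day 3 and 7 of day 5 as doublets. They stayed in, and so few calls do not mean that doublets are removed. Alpha-defensin level sums 18 genes. Thinning to 6700 UMIs left out 0 cells. TMM factors came from edgeR 4.0.16. The rule of size was tested on simulated data. Other tools were numpy 2.4.6, pandas 2.3.3, scipy 1.17.1 and matplotlib 3.10.9. The comparisons inside the mixed secretory cluster and in defensin-rich cells were chosen after seeing the data.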

Additional observations from a re-analysis of the deposited data

How the results depend on the processing

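With 1 library per day nothing here is replicated, and no paired analysis was possible because each day has a single library. The number of genes counted as higher over all cells was 2 to 4 under every alternative run, and the number counted as lower was 0 except that Mmp7 was counted as lower, 1 gene, when day 5 was limited to the cells at or above the day 3 minimum depth. Of 42 alternative log2 ratios of single genes, 1 turned the sign of a gene counted as higher or lower: the mean of the deposited log2 values of Lyz1 differed by -0.059 (day 5 minus day 3), the cause was not tested, and 20 others moved beyond their counting interval. Among genes counted as neither, Mmp7 turned to 0.089 under TMM scaling and 0.33 without Enterocyte-like cells, and Ang4 to -0.51 with the depth-matched day 5 cells and -0.10 on the deposited log2 scale. Cells holding Lyz1, Mmp7, Itln1 or Ang4 were 418 at day 3 and 294 at day 5 with 1 UMI as the limit, and 22 and 28 after thinning to 6700, in place of 46 and 41. Cells holding at least 3 of the 4 were 45 and 26 with 1 UMI as the limit and 11 and 8 with 10. Of the 12 defensin-poor secretory cells of day 5, 6 had a UMI of the 4 genes and 1 was a holder. At Leiden resolution 0.5 the secretory clusters held 75.8% of the 4 genes' day 3 UMIs in place of 73.9%. At resolution 2 the secretory cells were not a single group. A Goblet-like cluster had 46 day 3 and 22 day 5 cells, and a mixed secretory cluster led by defensins had 0 and 18. Enterocyte-like clusters held 57.1% of day 5 Pnliprp2 at resolution 0.5 and at resolution 2, 57.4% with the 7 genes kept in the clustering and 45.6% with each library clustered alone, in place of 62.8%, as these clusterings named fewer cells Enterocyte-like. Depth limits Habp2 most, at 5 and 6 UMIs.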
